A study of Homo sapiens with 2 samples.

Results

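The DNAJ genes encode the HSP40 co-chaperones, and they were taken here as every named row of the deposited count table whose gene symbol is DNAJA, DNAJB or DNAJC followed by a number. The rule found 43 of 60623 named genes, with 4 in subgroup A, 13 in subgroup B and 26 in subgroup C. The annotation deposited with the counts gave a J domain to 42 of the 43, and DNAJB3, which GENCODE 29 lists as a transcribed processed pseudogene, had none. RNA-seq was made from HCT116, a human colon cancer cell line labelled wild type, in 2 cultures. One culture, siControl, was transfected with a non-specific siRNA and the other, siKAT7, with an siRNA against KAT7, both with Lipofectamine 2000. KAT7, also called HBO1, is a histone acetyltransferase, and the study asked which genes change in transcription when it is knocked down. Neither the time after transfection nor the siRNA sequence was stated. Each group had 1 library, so the differences between them have no replicate check, and the intervals cover counting error only.

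J-domain proteins bring unfolded or specialised client proteins to HSP70 chaperones and stimulate the HSP70 ATPase, so that each HSP70 works at the places where its J-domain partners act. Subgroup A resembles bacterial DnaJ, with a zinc-finger region and a client-binding C-terminal part, subgroup B lacks the zinc finger, and subgroup C shares little beyond the J domain itself. Some members serve general folding in the cytosol, and others have single tasks in the endoplasmic reticulum, mitochondria, clathrin-coated vesicles, ribosomes or the spliceosome. DNAJB1 is the classical heat-inducible member, transcribed under the heat shock factor HSF1.

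Named genes held 23450326 counts in siControl and 23533134 in siKAT7, and 13217 genes were kept whose mean reached 1 CPM (the count as a share of the library, scaled by TMM factors). KAT7 itself had 443 counts in siControl and 287 in siKAT7, a log2 ratio of -0.52 (95% counting interval -0.74 to -0.31), lower in the library labelled siKAT7. That ratio is short of the 1.5-fold used below for a call, while scaling by total counts put KAT7 past it, at -0.63. Of 10 epithelial markers 6 were kept (the whole list summed to 11732.5 CPM in siControl and 12412 in siKAT7), led by KRT8, while VIL1, KRT20, CEACAM5 and CDX1 lay under 1 CPM. Of 12 markers of fibroblasts, endothelium and blood 1 was kept, COL1A1 with 760 and 706 counts, the list summed to 33.3 and 34.2 CPM, and PTPRC, CDH5, HBB and PECAM1 were at 0. Total-count scaling, in place of TMM, moved all log2 ratios by a median of -0.11.

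Of the 43 DNAJ genes, 37 were kept and 2 of these were called, DNAJB1 higher and DNAJC13 lower in siKAT7. A call means a log2 ratio of siKAT7 over siControl of at least 1.5-fold in size with a counting interval that excluded 0. Over all genes kept, 3.91% were called higher and 3.91% lower, so 1 member in each direction is near that background. The other 35 were not called, and 21 of the 37 lay within 0.25 of 0 on the log2 scale. The members' median log2 ratio was -0.08, with 14 above 0 and 23 below, beside a median of -0.0049 over all genes kept, of which 49.3% were above 0. By the counting interval alone 8 members lay above 0, where 23.0% of all genes did, and 11 lay below, where 22.0% did. Those shares were 21.6% and 29.7% of the members. Under total-count scaling 6 of the 37 members had an interval above 0 and 17 one below, beside 1760 and 4702 of the 13217 genes kept. The authors' deposited table gave 21 members an adjusted p under 0.05, 6 with a log2 fold above 0 and 15 below, and it gave one to 40.6% of all genes kept. It marked 0 of the 43 members as significant. The smallest log2 fold among the kept genes marked in the authors' deposited table was 1.01 in size, and that of the kept members reached at most 0.78. In bulk RNA a lower count can come from fewer cells that hold a transcript or from less of it per cell, and these cannot be told apart.

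**Figure D1:**
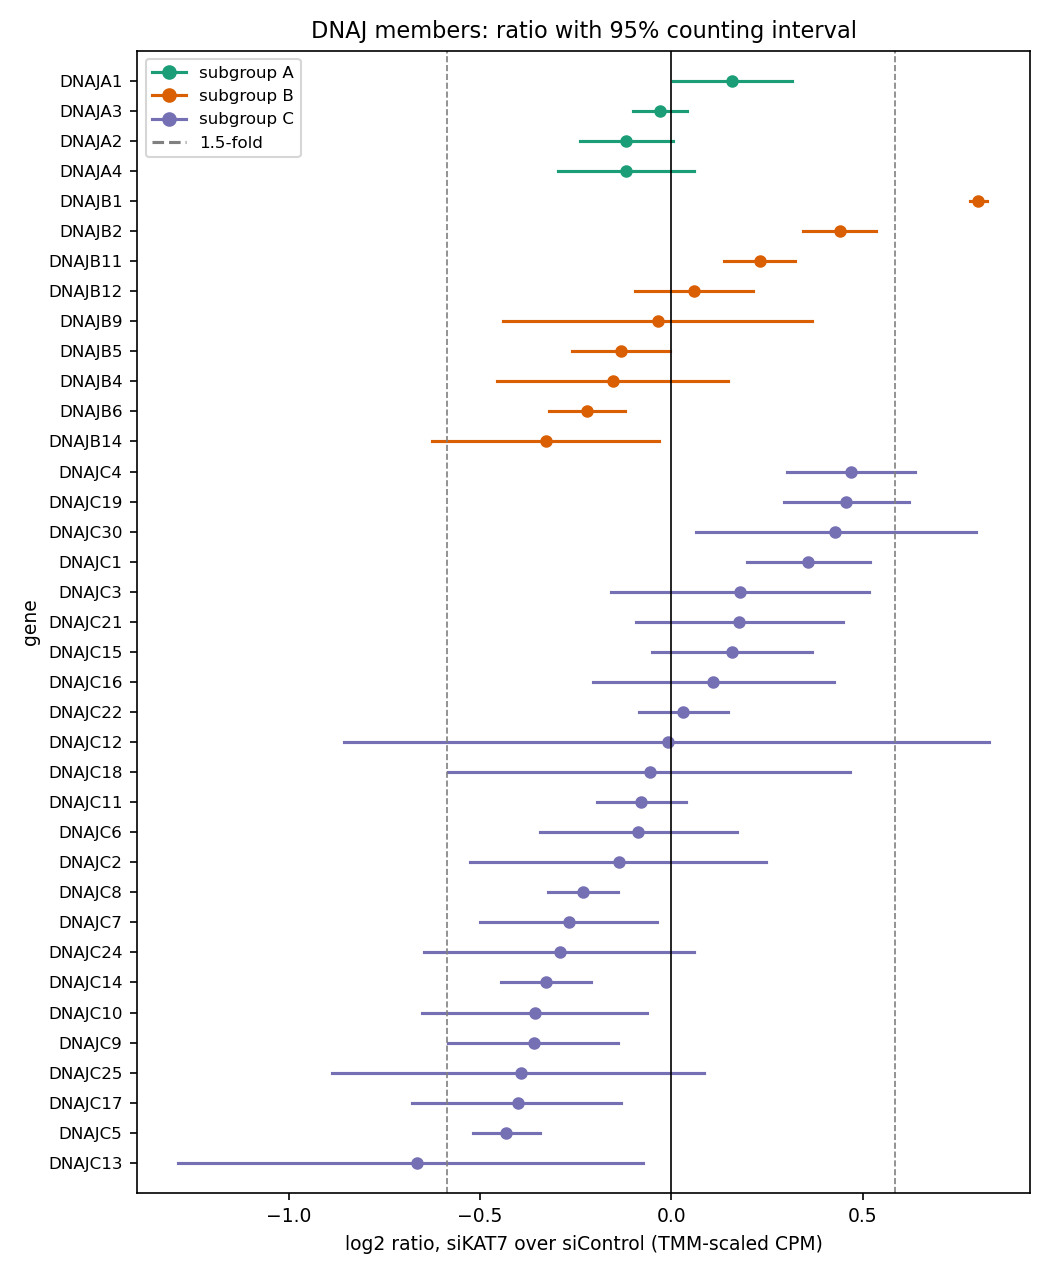
Log2 ratio of siKAT7 over siControl (x axis, TMM-scaled CPM) for the 37 kept DNAJ members (y axis), coloured by subgroup, with bars for the 95% counting interval and dashed lines at 1.5-fold. DNAJB1 at 0.80 and DNAJC13 at -0.67 are the 2 members past the dashed lines, and the bar of DNAJC13 is much wider.

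DNAJB1 was the most abundant member in both libraries and made up a larger share of the family's counts in siKAT7 than in siControl. The gene (ENSG00000132002) lies on the reverse strand at chr19:14514770-14529770 of GRCh38 in GENCODE 29. It had 24338 counts in siControl and 39557 in siKAT7. The siKAT7 library was higher by 1.74-fold, a log2 ratio of 0.80 (counting interval 0.78 to 0.83), and of 0.70 under total-count scaling. The log2 fold in the authors' deposited table was also 0.70. Among the 1758 genes at or above 100 CPM on average, DNAJB1 ranked 20 by log2 ratio. Among the 475 genes above 300 CPM, 4.63% were called higher and the middle 95% of the ratios lay between -0.26 and 0.78, with DNAJB1 just outside. DNAJB1 made up 47.5% of all DNAJ counts in siControl (exact 95% interval 47.1 to 48.0) and 61.8% in siKAT7 (61.4 to 62.2). DNAJA3 came next with 6.74% and 4.92%.

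The family's total was higher in siKAT7 with this gene and slightly lower without it. The counts of all 43 members summed to 51210 in siControl (0.218% of named counts) and 64027 in siKAT7 (0.272%). Without DNAJB1 the totals were 26872 and 24470. On the TMM scale the summed counts of the kept members had a log2 ratio of 0.42 (counting interval 0.41 to 0.44), and of -0.03 (-0.06 to -0.01) without DNAJB1.

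Levels were compared between members as CPM per kilobase of the deposited gene length. DNAJB1 stood at 446 in siControl and 778 in siKAT7, far above all other members. DNAJB6 followed at 76.2 and 65.4, DNAJA3 at 52.5 and 51.4, DNAJC8 at 50.6 and 43.1, and DNAJB11 at 30.6 and 35.9. DNAJA3 and DNAJC8 are neighbours in this order that lie close together in siControl. The lowest kept members were DNAJC13, at 0.344 and 0.216, and DNAJC10, at 0.471 and 0.368, whose deposited length of 20144 bases is the longest of the family. With the length of the APPRIS principal transcript, a choice made after seeing the data, 6 members moved by more than 3 places, and DNAJB6 went from place 2 to place 4.

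**Figure D2:**
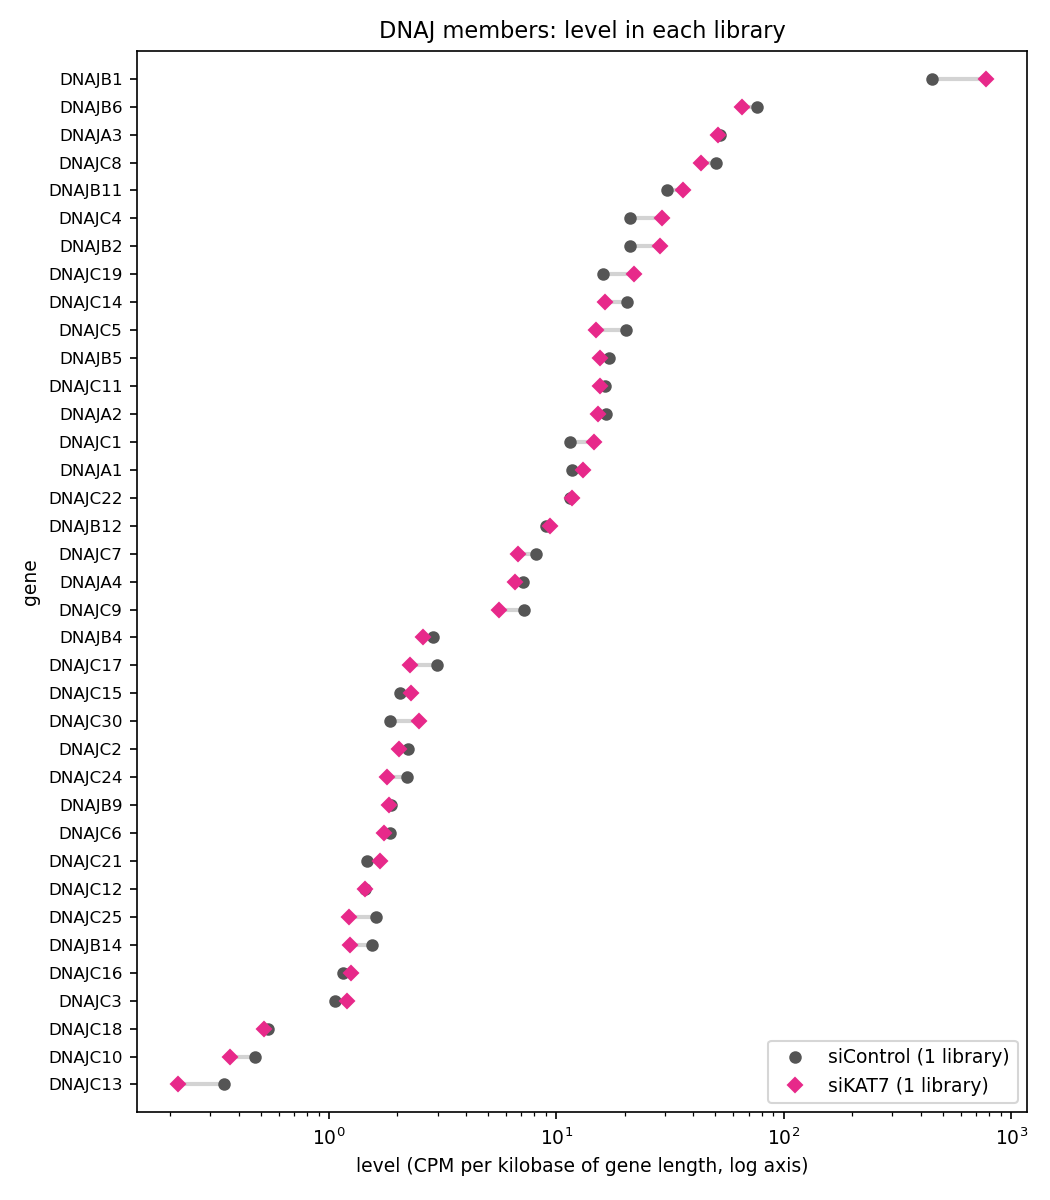
Level of each kept DNAJ member in CPM per kilobase of gene length (x axis, log scale) in the siControl library (circles) and the siKAT7 library (diamonds), ordered by mean level. DNAJB1, at 446 and 778, stands apart from DNAJB6 and from the other members in both libraries.

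The stretch upstream of DNAJB1 is shown because HSF1 is known to bind repeats of the unit GAA and its complement, and DNAJB1 was the member called higher. DNAJA4 and DNAJB6 are shown beside it because they hold like letters and have log2 ratios of -0.12 and -0.22. Among the kept members DNAJA1 and DNAJC15, both at 0.16, and DNAJB4, at -0.15, also hold a match and are not shown. The sequences are RefSeq's on GRCh38.p14, 5′ to 3′ along the gene's strand, limited to the part of the 250 bases before a RefSeq start that lies outside every exon of GENCODE 29. DNAJB1 is read from the reverse strand at chr19:14518421-14518647, DNAJA4 from the forward strand at chr15:78264394-78264543, and DNAJB6 from the forward strand at chr7:157336774-157336965. Capitals mark matches to GAANNTTC or TTCNNGAA.
DNAJB1: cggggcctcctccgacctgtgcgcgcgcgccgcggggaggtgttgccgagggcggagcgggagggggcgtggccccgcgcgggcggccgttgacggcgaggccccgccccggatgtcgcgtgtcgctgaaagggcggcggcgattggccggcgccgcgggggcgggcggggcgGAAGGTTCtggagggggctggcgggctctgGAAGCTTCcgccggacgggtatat
DNAJA4: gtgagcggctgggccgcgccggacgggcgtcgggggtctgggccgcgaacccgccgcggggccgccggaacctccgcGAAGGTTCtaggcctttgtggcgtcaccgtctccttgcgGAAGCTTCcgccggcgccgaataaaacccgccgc
DNAJB6: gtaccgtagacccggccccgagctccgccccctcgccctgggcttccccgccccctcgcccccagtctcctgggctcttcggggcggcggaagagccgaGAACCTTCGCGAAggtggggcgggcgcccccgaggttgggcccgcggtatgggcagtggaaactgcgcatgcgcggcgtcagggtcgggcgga

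DNAJB1 and DNAJA4 each held a pair of GAANNTTC matches, with the same letters in the same order. In DNAJB1 they lay 77 to 70 and 47 to 40 bases before the start, and in DNAJA4 91 to 84 and 52 to 45. RefSeq windows were found for 39 of the 43 members, 51 windows in all (34 of the 37 kept members), and 35116 windows of all genes were searched on both strands. Of all windows 0.29% held 2 or more GAANNTTC matches, and DNAJB1 and DNAJA4 were the 2 members among them. The 3-unit form GAANNTTCNNGAA, searched first, was in 0.441% of all windows and in 1 member, DNAJB6. The searches for 2 units, which overlap with it, and the count of windows with 2 or more matches were chosen after these windows had been seen. GAANNTTC was in 5.78% of all windows and in 5 members, DNAJA1, DNAJA4, DNAJB1, DNAJB6 and DNAJB7. TTCNNGAA was in 6.62% and in 3 members, DNAJB4, DNAJB6 and DNAJC15. The log2 ratios of the kept members with either form ran from -0.22 for DNAJB6 to 0.80 for DNAJB1. The ER stress response element, searched as a CCAAT box 9 bases before CCACG, was in 0.074% of all windows and in 0 members. The CCAAT box alone was in 32.0% of windows and in 21 of the 51 member windows, which belong to 16 members. Elsewhere in this paragraph the percents are also of windows and the member counts are of genes. A gene can have more than 1 window, so percents and member counts are not in like units. TGACGTCA was in 1.65% of windows and in 1 member, DNAJC27. TGATGNAA was in 3.14% and in 1, DNAJA4, in another of its windows. A match is a description of letters and not a bound site.

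None of the cytosolic members other than DNAJB1 was called. In subgroup A the 3 cytosolic members, which assist folding together with HSP70, had a median log2 ratio of -0.12. DNAJA1 had 658 counts in siControl and 685 in siKAT7, a log2 ratio of 0.16 (counting interval 0.0035 to 0.32). DNAJA2 had 1206 and 1036 counts, at -0.12 (-0.24 to 0.0038), and DNAJA4 had 564 and 484, at -0.12 (-0.30 to 0.06). The interval of DNAJA1 lay above 0 and the others included 0. Under total-count scaling the interval of DNAJA1 included 0 and those of DNAJA2 and DNAJA4 lay below it.

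In subgroup B the 5 kept cytosolic and nuclear members had a median of -0.13, and DNAJB2 had the highest ratio after DNAJB1. DNAJB2, a ubiquitin-binding co-chaperone that sends clients to the proteasome, had 1626 counts in siControl and 2055 in siKAT7. Its log2 ratio was 0.44 (counting interval 0.35 to 0.53). DNAJB6, which holds back aggregation of polyglutamine proteins, had 1864 and 1490 counts, and its log2 ratio was -0.22 (-0.32 to -0.12). DNAJB5 had 1072 and 912 counts, at -0.13 (-0.26 to -0.0025). DNAJB4, close in sequence to DNAJB1, had 203 and 170 counts, at -0.15 (-0.46 to 0.15). Of these members DNAJB1 was called. DNAJB2 had an interval above 0 and DNAJB5 and DNAJB6 had intervals below 0 without reaching 1.5-fold, and for DNAJB4 no difference was detectable at this depth. 

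The 11 members of the endoplasmic reticulum, all kept, were split, with 5 above 0, 6 below and a median of -0.04. Among those of the lumen, DNAJB11 (ERdj3), which binds nascent secretory proteins for the HSP70 of that compartment, had 1787 counts in siControl and 1954 in siKAT7, at 0.23 (0.14 to 0.32). DNAJC3, which also acts in the lumen, had 145 and 153 counts, at 0.18 (-0.16 to 0.52). DNAJB9 (ERdj4), a partner in degradation of misfolded proteins, had 110 and 100 counts, at -0.04 (-0.44 to 0.37). DNAJC10 (ERdj5), a disulfide reductase that acts in the same degradation route, had 231 and 168 counts, at -0.36 (-0.65 to -0.06). None of these was called. The interval of DNAJB11 lay above 0, that of DNAJC10 below, and those of DNAJC3 and DNAJB9 included 0.

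Of the members anchored in the membrane of the endoplasmic reticulum, DNAJC1 (ERdj1) was the one with an interval above 0. It had 585 counts in siControl and 699 in siKAT7, at 0.36 (0.20 to 0.52). DNAJC14 had 1380 and 1025 counts, at -0.33 (-0.45 to -0.21), and DNAJB14 had 225 and 167, at -0.33 (-0.63 to -0.03). DNAJB12, which like DNAJB14 places its J domain on the cytosolic side, had 698 and 678 counts, at 0.06 (-0.09 to 0.21), or -0.05 under total-count scaling. DNAJC16 had 170 and 171 counts, at 0.11 (-0.20 to 0.43), and DNAJC18 had 67 and 60, at -0.06 (-0.58 to 0.47). DNAJC25 had 88.9 and 63 counts, at -0.39 (-0.89 to 0.09). Its readthrough model with GNG10 held more counts, 528 and 333, and the sum of both models had a log2 ratio of -0.54 (-0.72 to -0.35), so the reads assigned to DNAJC25 are uncertain.

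The 6 kept mitochondrial members had the highest median of the role groups, 0.29 (0.19 under total-count scaling), with 4 above 0 and 2 below, and none was called. Their summed counts were nearer 0, at a log2 ratio of 0.08, or -0.03 under total-count scaling. DNAJC19, which stimulates the HSP70 of the import motor at the inner membrane, had 551 counts in siControl and 705 in siKAT7, at 0.46 (0.29 to 0.62). DNAJC4, placed in this group with less certainty, had 520 and 671 counts, at 0.47 (0.30 to 0.64). DNAJC30, which acts on the respiratory chain, had 114 and 143 counts, at 0.43 (0.06 to 0.80), and its interval included 0 under total-count scaling. The intervals of these 3 lay above 0. DNAJC15, related to DNAJC19, had 373 and 388 counts, at 0.16 (-0.05 to 0.37). DNAJC11, of the complex that shapes the cristae, had 1279 and 1129 counts, at -0.08 (-0.19 to 0.04). DNAJA3 (Tid1), the subgroup A member of the matrix, had 3450 and 3148 counts, at -0.03 (-0.10 to 0.04), and lay at -0.14 under total-count scaling.

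The 3 members of vesicle and endosome traffic all had log2 ratios below 0, with a median of -0.43. DNAJC5, the cysteine string protein of secretory vesicles (chr20:63895182-63936031, forward strand), had 2574 counts in siControl and 1779 in siKAT7. Its log2 ratio was -0.43 (counting interval -0.52 to -0.34), and -0.54 under total-count scaling and in the authors' deposited table. Among the 2918 genes between 30 and 100 CPM the middle 95% of the ratios lay between -0.41 and 0.44, and DNAJC5 was the 1 of 10 members there that lay outside it. DNAJC13 (RME-8, chr3:132417526-132539032, forward strand), which acts on endosomes, had 65 and 38 counts. It was called lower at -0.67 (-1.29 to -0.07), 1.59-fold. Between 1 and 3 CPM, where DNAJC13 lies, 12.6% of genes were called lower and 11.7% higher, and the middle 95% lay between -1.38 and 1.32. DNAJC6 (auxilin), which uncoats clathrin vesicles, had 270 and 237 counts, at -0.09 (-0.34 to 0.17).

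Of the 5 members of the ribosome, spliceosome and nucleus, 4 had log2 ratios below 0, and the median was -0.23. DNAJC9, a chaperone that also binds histones H3 and H4, had 401 counts in siControl and 291 in siKAT7, at -0.36 (-0.58 to -0.14). DNAJC17, which is linked to splicing, had 271 and 191 counts, at -0.40 (-0.68 to -0.13). DNAJC8, another factor found with spliceosomes, had 2169 and 1723 counts, at -0.23 (-0.32 to -0.14). The intervals of these 3 lay below 0. DNAJC2, which sits on the ribosome near the exit of the nascent chain, had 124 and 105 counts, at -0.14 (-0.53 to 0.25). DNAJC21, a factor of large subunit maturation, had 223 and 235 counts, at 0.18 (-0.09 to 0.45).

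**Figure D3:**
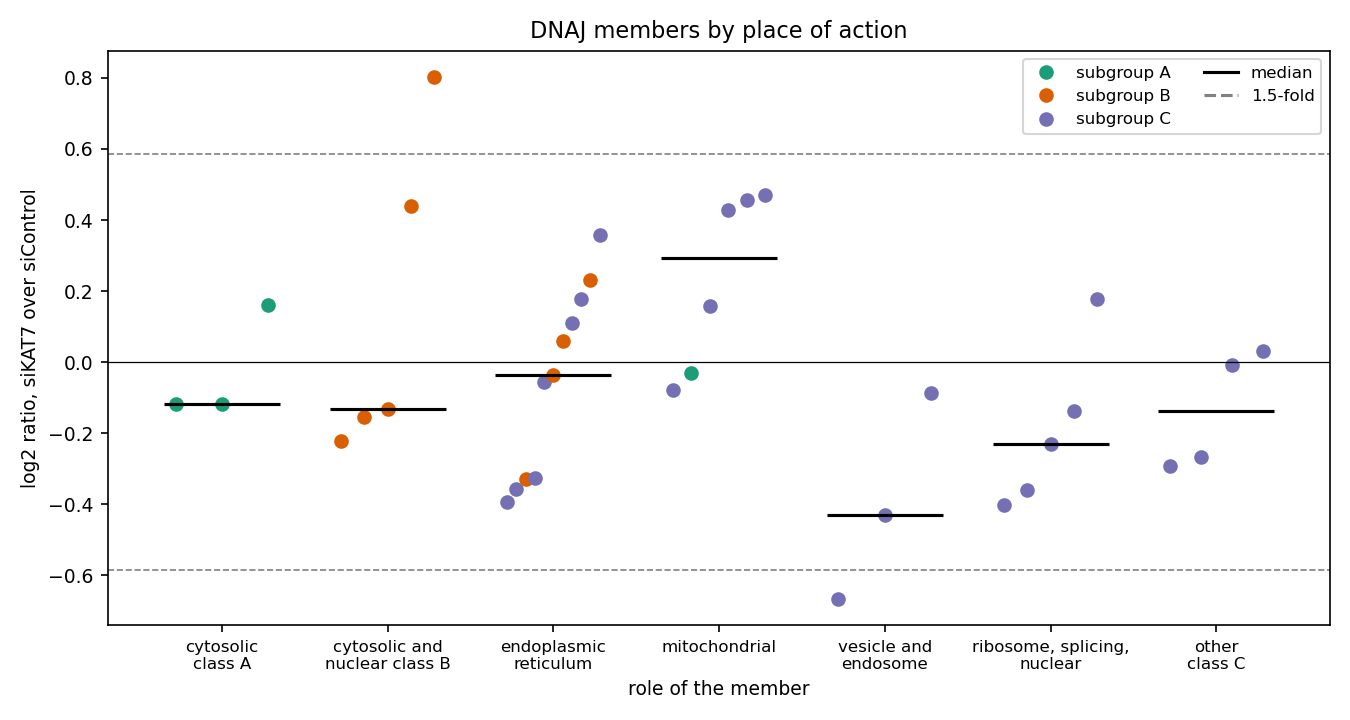
Log2 ratio of siKAT7 over siControl (y axis) of the 37 kept DNAJ members, 1 point each, grouped by where the protein acts (x axis) and coloured by subgroup, with a bar at each group's median and dashed lines at 1.5-fold. The median is 0.29 for the 6 mitochondrial members and -0.43 for the 3 of vesicle and endosome traffic. These 3 all lie below 0, and each other group, the mitochondrial one included, has points on both sides of 0.

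Of the remaining subgroup C members, DNAJC7, a tetratricopeptide co-chaperone that links HSP70 and HSP90, had 358 counts in siControl and 277 in siKAT7, at -0.27 (-0.50 to -0.04). DNAJC24, which takes part in diphthamide synthesis, had 159 and 121 counts, at -0.29 (-0.65 to 0.06). DNAJC22, a membrane protein, had 1241 and 1182 counts, at 0.03 (-0.08 to 0.15), or -0.08 under total-count scaling. DNAJC12 had 27 and 25 counts, at -0.01 with an interval from -0.85 to 0.83, so a change in it was not detectable at this depth. DNAJC7 was the 1 of these 4 with an interval that excluded 0.

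The 6 members under 1 CPM were DNAJC27 with 16 counts in siControl and 11 in siKAT7, DNAJB13 with 5 and 0, DNAJC28 with 1 and 2, DNAJB8 with 1 and 0, and DNAJB7 and DNAJB3 with 0 in both. A count of 0 allows up to 3 counts, and no ratio is given for these. DNAJB7, DNAJB8 and DNAJB13 are genes known for expression in testis. Another 26 rows carry DNAJ in a symbol outside the rule, mostly pseudogenes, and 5 of them had counts. By subgroup, the median log2 ratio was -0.07 for the 4 kept members of A, -0.04 for the 9 of B and -0.08 for the 24 of C. The summed counts had a log2 ratio of -0.03 in A, 0.66 in B and -0.11 in C, where B holds DNAJB1. Under total-count scaling the medians were -0.18 in A, -0.14 in B and -0.19 in C.

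Some members share exonic bases with other counted genes, and the strand setting of the counting is not known. Summed with the overlapping gene, a setting chosen after seeing the data, some ratios had another size or sign, and the overlapping gene often held more counts than the member. DNAJC11 with THAP3 (1419 shared bases, opposite strand) was at 0.14, where DNAJC11 alone was at -0.08. DNAJC7 was at 0.06 with NKIRAS2 and at -0.19 with CNP, both on the opposite strand, against -0.27 alone. DNAJB9 was at 0.08 with PNPLA8 and at 0.03 with THAP5, against -0.04 alone. These are the 3 kept members whose sign differed in a sum. DNAJC4 with NUDT22 (297 bases, same strand) was at 0.26, against 0.47 alone. DNAJC30 with BUD23 (359 bases, opposite strand) was at 0.29, against 0.43 alone. DNAJC9 was at -0.48 with FAM149B1 (949 bases, opposite strand) and at -0.08 with MRPS16 (20 bases, same strand), against -0.36 alone. DNAJC17 with ZFYVE19 (110 bases) was at -0.20, against -0.40 alone, and DNAJC14 with ORMDL2 (920 bases) was at -0.20, against -0.33 alone. DNAJB1 with TECR (211 bases, opposite strand) was at 0.68, against 0.80 alone.

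Gene length went along with the ratio over the whole table. Across the 13217 genes kept Spearman's rho between the deposited length and the log2 ratio was -0.20, and across the 37 members -0.21. These are correlations across genes in the same pair of libraries, and genes are not independent replicates. The 14 members shorter than 2500 bases had a median log2 ratio of -0.02 and the 23 others -0.09, beside 0.06 and -0.05 for all genes split in that way. Single members lay on both sides. Of the short ones, DNAJC4 (1015 bases) was at 0.47 and DNAJC19 (1416 bases) at 0.46, but DNAJB6 (1005 bases) was at -0.22 and DNAJC12 (769 bases) at -0.01. Of the long ones, the 3 of vesicle traffic (5249 bases for DNAJC5, 5962 for DNAJC6 and 7754 for DNAJC13) were below 0, but DNAJC15 (7459 bases) was at 0.16. The part of length in these differences was not tested.

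**Figure D4:**
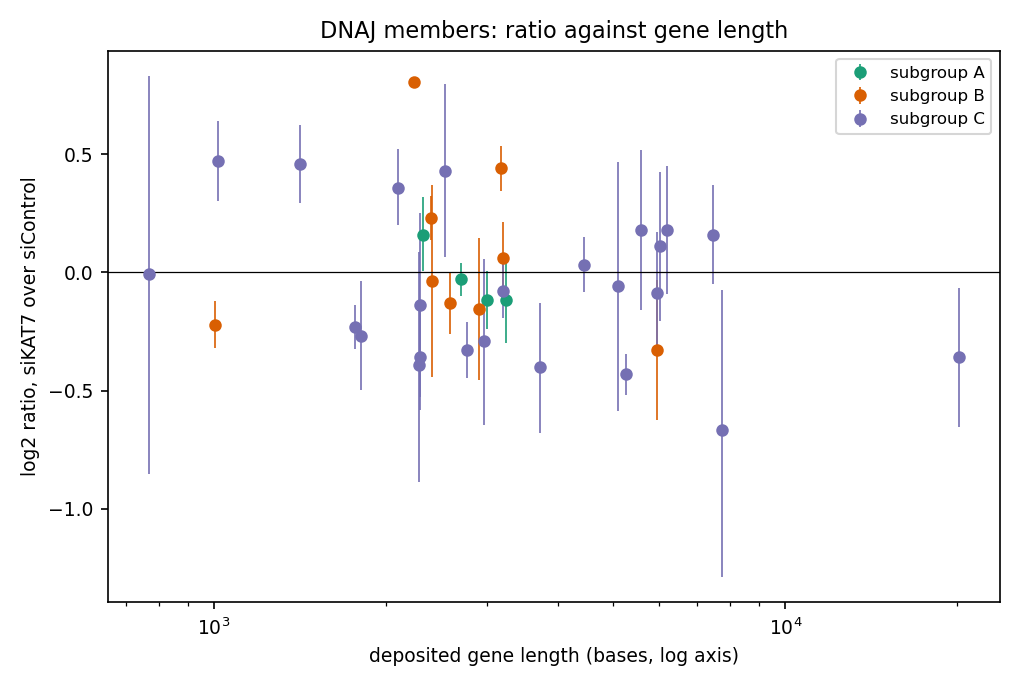
Log2 ratio of siKAT7 over siControl (y axis) against deposited gene length in bases (x axis, log scale) for the 37 kept DNAJ members, coloured by subgroup, with bars for the 95% counting interval. DNAJC4 (1015 bases) lies above 0 and DNAJB6 (1005 bases) below it, DNAJC13 (7754 bases) lies below 0 and DNAJC15 (7459 bases) above it, and Spearman's rho over the members is -0.21.

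The HSP70 genes, the partners of the J-domain proteins, held more called genes than the DNAJ family. Of 15 kept HSP70 and HSP110 genes 4 were called higher and 1 lower, beside 3.91% of all genes kept in each direction. Intervals lay above 0 for 7 of the 15 and below 0 for 1, and the median log2 ratio was 0.03 (-0.08 under total-count scaling). HSPA6, a strictly stress-inducible HSP70, had 11 counts in siControl and 80 in siKAT7, at 2.91 (2.05 to 4.02). Its mean lay between 1 and 3 CPM, where 11.7% of genes were called higher. HSPA1B, a heat-inducible HSP70, had 44332 and 95432 counts, at 1.21 (1.19 to 1.22). HSPA1A, its near-identical copy, had 277 and 872 counts, at 1.75, and reads cannot be firmly divided between the copies. HSPH1, an HSP110 exchange factor, had 423 and 711 counts, at 0.85. DNAJB1 at 0.80 was thus the one J-domain member called higher beside these heat-inducible partners. Among the 13 exchange factors and other HSP70 cofactors 0 were called, and the median was 0.03 (-0.08 under total-count scaling). Among the kept genes of the cytosolic heat shock response the median was 0.08 (-0.03 under total-count scaling).

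The genes that share the compartments of the DNAJ members gave these values. Among 24 kept genes of endoplasmic reticulum folding and the unfolded protein response 5 were called higher and 0 lower, beside 3.91% of all genes kept in each direction. In this list 16 intervals lay above 0 (23.0% of all genes did) and 1 below, and the median was 0.28. DDIT3, the stress transcription factor CHOP, was at 1.03. HERPUD1, a factor of degradation from the endoplasmic reticulum, was at 0.74. EIF2AK3, the sensor kinase PERK, was at 0.67, and the transcription factor ATF4 was at 0.61. Under total-count scaling 2 genes of this list were called higher (359 of the 13217 genes kept were), and the median was 0.17. On that scale 13 intervals of the list lay above 0 and 4 below, beside 1760 and 4702 of the 13217 genes. The 11 DNAJ members of the endoplasmic reticulum had 2 intervals above 0 and 3 below, or 2 and 4 under total-count scaling. Among 14 mitochondrial import and quality control genes 0 were called and the median was 0.17, or 0.06 under total-count scaling. The mitochondrial DNAJ members had 0.29 and 0.19, a difference that has no test here. Among J-domain genes outside the naming rule HSCB, the iron-sulfur cluster co-chaperone of mitochondria, was at 0.57. SEC63, which works at the translocon, was at 0.38, and GAK, a relative of auxilin, was at 0.0043. These were not called.

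**Figure D5:**
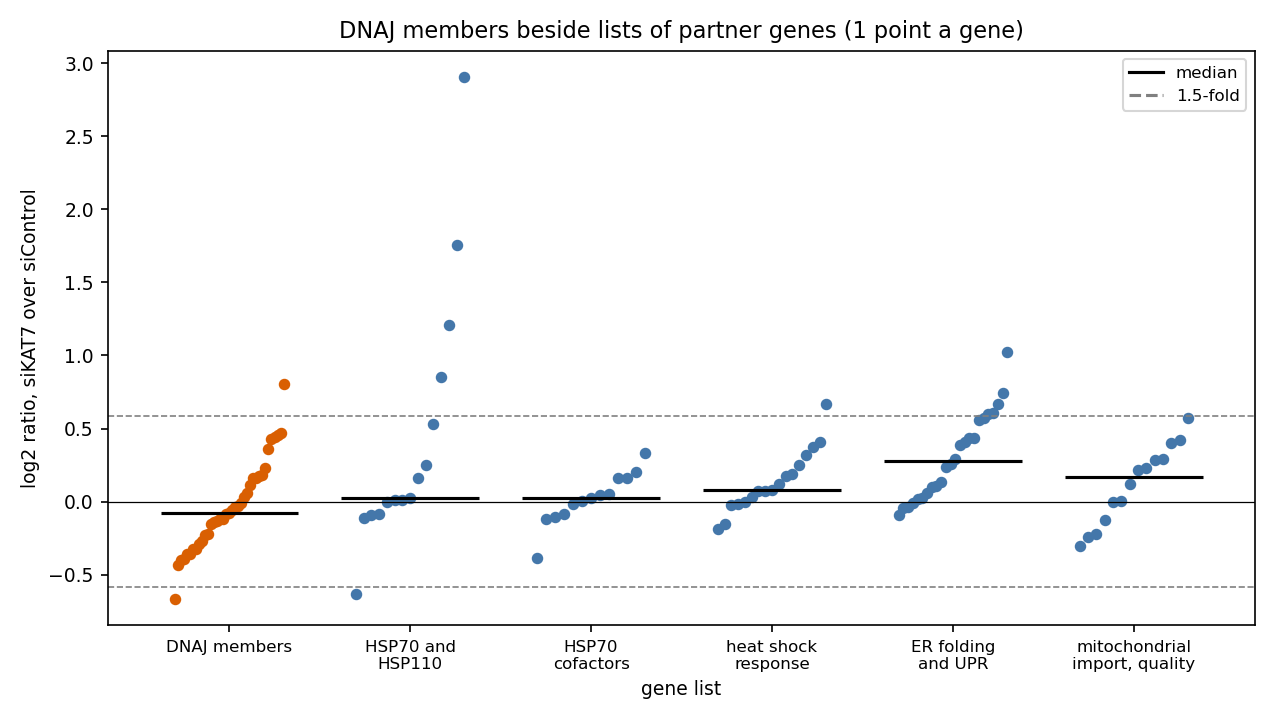
Log2 ratio of siKAT7 over siControl (y axis) of each kept gene, 1 point a gene, in the DNAJ family and in 5 lists of partner genes (x axis), with a bar at each median and dashed lines at 1.5-fold. The DNAJ median is -0.08, the median of the endoplasmic reticulum list is 0.28, and HSPA6 at 2.91 is the highest point.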

How the data were processed

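The authors deposited a table of expected counts per gene (estimates that can be fractions) for 1 library of each group. Per the submitters' processing notes RSEM 1.3.3 and GRCh38.p13 were used. Aligner, annotation release, strand setting and RNA selection: not given in the sources used here. The deposited lengths per gene are in bases. A second deposited table gives the authors' own log2 fold and adjusted p-value per gene, by a tool that is not named. Such a p-value compares the 2 libraries and not the conditions.

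Of 60954 rows, 331 without a gene name were left out (1.11% of counts in siControl, 1.67% in siKAT7). The 2 count columns are repeated with 0 differing cells, and each was used once. Counts were rounded and scaled by TMM in edgeR 4.0.16, with factors of 1.04 in siControl and 0.964 in siKAT7. Log2 ratios used a prior count of 0.5, with exact Clopper-Pearson 95% intervals from the split of each gene's counts. No molecular identifiers are mentioned and PCR copies are not independent, so intervals and limits for a count of 0 cover counting error only. With 1 library per group no test between conditions was made. The procedure was tested on simulated data.

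Every DNAJ member was named, and of each other list up to 4 members at least 1.5-fold different with the largest log2 ratios. Some list members are not reported here. The J-domain genes outside the rule, the markers, and genes overlapping a member were named after their values were seen. The members and lists were chosen with earlier results of these data known. Coordinates and overlaps came from GENCODE 29 and upstream sequences from RefSeq (GRCh38.p14). Alternatives were total-count scaling, DESeq2 1.42.0 size factors, a prior count of 5, other filters and fold thresholds, and the authors' fold.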

Additional observations from a re-analysis of the deposited data

How the results depend on the processing

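The single higher call, DNAJB1, was made under every scaling, prior count and filter tried and with the authors' deposited fold, and so was the single lower call, DNAJC13, except with a mean of at least 10 CPM, which leaves it out and gives 0 lower calls. At 2-fold 0 members were called higher and 0 lower, and with the interval alone 8 and 11. The median log2 ratio of the members, -0.08, was -0.18 under total-count scaling and -0.19 with the authors' deposited fold. The summed counts of the members gave a log2 ratio of 0.42, of -0.033 without DNAJB1 and of 0.32 under total-count scaling (this sum and both alternatives were chosen after seeing the data). DNAJB12 and DNAJC22 changed sign under total-count scaling and with the authors' deposited fold, and 0 members did with DESeq2 size factors or a prior count of 5. Filters on low counts cannot change a single member's ratio and were not run for those. No paired analysis was possible because each group has 1 library. Of the 37 kept members, 11 share exonic bases with a counted gene (at least 10 counts in a library) on the opposite strand and 5 with one on the same strand.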
